A study of Bos taurus with 15 samples.

Results

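Integrin subunits are the receptors through which matrix cells hold on to collagen and other matrix proteins. The genes described here are 10 of them, ITGA1, ITGA2, ITGA3, ITGA5, ITGA10, ITGA11, ITGAV, ITGB1, ITGB3 and ITGB5, taken by gene symbol from the 38001 Ensembl genes of a bovine expression table. Each symbol matched 1 identifier, and 9 of the 10 genes were among the 11834 genes with enough counts to be tested. The exception was ITGA2.

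RNA came from 15 libraries of engineered tissues at day 28, made from meniscal fibrochondrocytes of cattle, cells that build the fibrous cartilage of the knee. All groups had the same culture, with 10% fetal bovine serum for 3 days and a chondrogenic medium for 25 more (ascorbic acid at 50 µg/ml, dexamethasone, and TGF-β3 at 10 ng/ml). The 5 groups of 3 libraries were the post region of tissue from an anchored mold, the middle region of such tissue, the post region of tissue from an unanchored mold, its middle region, and cells in collagen with no mold. Anchored tissues had post anchors and unanchored tissues had none. Regions were cut out and divided into pieces before RNA was extracted. The labels give neither the animals behind the cells nor their age, and do not tell whether libraries of 1 group, or of the 2 regions of a mold type, came from separate tissues. The p-values then cover only variation from library to library, and this may be technical.

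An integrin is a pair of an alpha and a beta subunit that spans the cell membrane. The beta subunit joins the cytoskeleton through talin and kindlin, and the pairing sets the ligand. Integrins α1β1, α2β1, α10β1 and α11β1 bind collagens, with α10β1 known from cartilage and α11β1 from fibroblasts that pull on fibrillar collagen. Integrin α5β1 binds fibronectin, α3β1 binds laminins, and the αv integrins αvβ3 and αvβ5 bind vitronectin and other proteins with the RGD sequence. In bulk RNA, fewer cells of a type and less RNA per cell cannot be told apart.

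Library totals ran from 2060763 to 7415631 gene counts. The no-mold libraries 1 and 3 and anchored middle library 2 were the shallowest, with 2060763, 2128230 and 2986906 counts. In each of the 15 pairs of libraries of 1 group, the counts differed beyond sampling noise, with a chi-square of 2.91 to 13.7 per degree of freedom. All 11 fibrochondrocyte markers checked were measured and tested, among them COL1A1 (6040 to 15400 CPM over libraries), DCN (1520 to 3320) and SOX9 (109 to 237). CPM give a gene's counts relative to the total of its library, here scaled by TMM factors, and are not divided by gene length, since the libraries were primed at the poly-A tail. Levels are therefore compared between groups and not between genes. Of the marker lists of other cell types, the 6 endothelial genes summed to 0.654 to 1.98 CPM over the libraries, the 6 leukocyte genes to 4.57 to 10.1, the 5 mural genes to 6.94 to 13.7, the 5 epithelial genes to 2.16 to 3.67 and the 2 platelet genes found to at most 0.718. The 4 Schwann and neural genes summed to 329 to 469, nearly all from S100B, which cartilage cells also express. Of the leukocyte genes, CD14 alone had enough counts to be tested, 326 in all libraries together, against 25 for PTPRC. The leukocyte integrin genes ITGB2, ITGAL and ITGAM had 2, 1 and 0 counts.

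**Figure D1:**
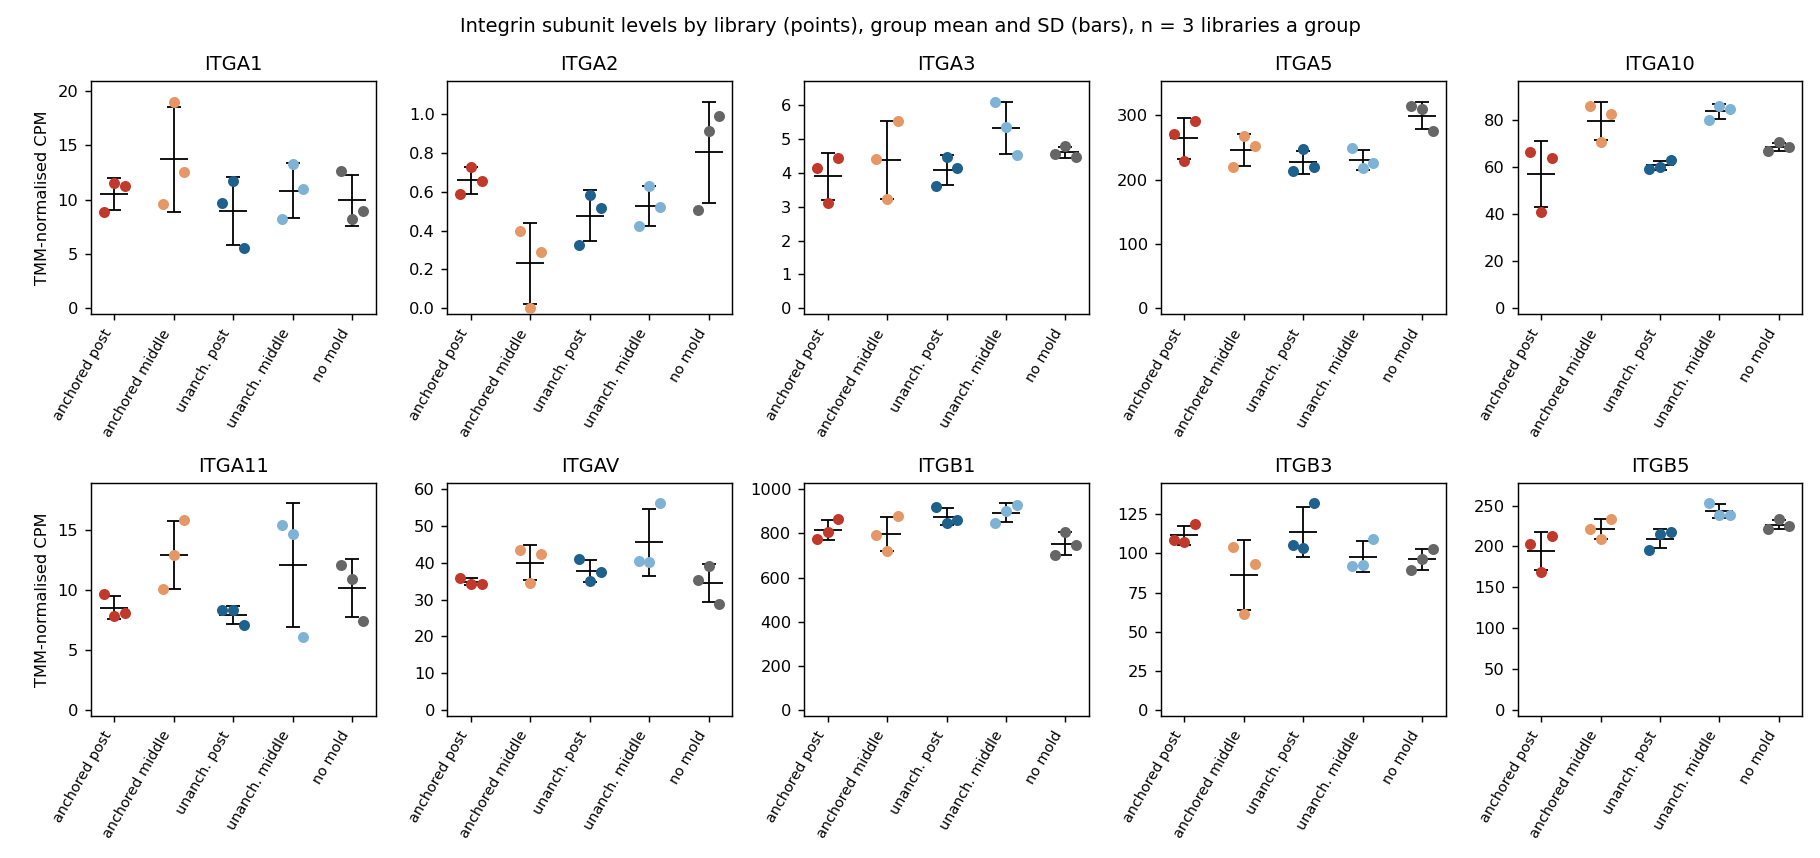
TMM-normalised CPM of the 10 integrin genes (vertical axis, linear, 1 scale per gene) in each of the 15 libraries (points), with the mean and SD of each group of 3 (bars). ITGA10 lies lower in both post groups than in both middle groups, and ITGA5 has its highest group mean, 299.7 CPM, without a mold.

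Post and middle regions were compared within the molded tissues. Averaged over mold types, the genes of the collagen-binding subunits α10 and α11 were lower at the post and the other 7 tested members did not pass. ITGA10 (ENSBTAG00000008373) fell by 0.47 log2 units (SE 0.0889, adjusted p = 0.00171 by edgeR's quasi-likelihood test, Benjamini-Hochberg method) and ITGA11 (ENSBTAG00000008380) by 0.61 (SE 0.175, edgeR adjusted p = 0.0302). These 2 of 9 members stand beside 8.51% of all tested genes that passed in the same comparison. The median log2 fold change of the 9 members was -0.24, against -0.006 over all tested genes. The members were chosen with earlier results of these data known, so the share and the median are descriptions of them.

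ITGA10 had 66.6, 41.1 and 64.1 CPM in the 3 anchored post libraries, against 86.2, 70.8 and 82.6 CPM in anchored middle. It had 59.4, 60.3 and 63.0 CPM in unanchored post, against 80.4, 86.3 and 84.9 CPM in unanchored middle. The highest post library lay below the lowest middle library in both mold types, and the 6 post libraries did not overlap the 6 middle libraries. ITGA10 was the only tested member without such an overlap with both mold types pooled. The share of all tested genes without such an overlap is not given here, so this only describes ITGA10. No mold, with 66.8, 70.6 and 68.5 CPM, lay above all 6 post libraries and below all 6 middle libraries. The gaps were narrow, with the nearest post library at 66.6 CPM and the nearest middle library at 70.8 CPM. ITGA10 did not pass by edgeR in any molded group against no mold. By group mean the order was unanchored middle (83.9 ± 3.12 CPM), anchored middle (79.9 ± 8.08), no mold (68.6 ± 1.90), unanchored post (60.9 ± 1.85) and anchored post (57.3 ± 14.1, SD, n = 3 each). The 2 middle groups overlapped each other, and so did the 2 post groups.

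Within anchored tissue ITGA10 had a log2 fold change of -0.49, post over middle (SE 0.126, edgeR adjusted p = 0.0438), and was the 1 of 9 members that passed, beside 1.92% of all tested genes. That call ended in the fits without 12 of the 15 single libraries (adjusted p 0.0507 to 0.157), all but anchored post library 1, anchored middle library 2 and unanchored middle library 3. The log2 fold change was -0.31 without anchored post library 2, the library with 41.1 CPM. Within unanchored tissue it was -0.46 (SE 0.125, edgeR adjusted p = 0.0984), and 0 of 9 members passed by edgeR, beside 0.448% of all tested genes. There 3 members had an unadjusted p under 0.05, beside 13.9% of all tested genes, and ITGA10 passed with DESeq2 (adjusted p = 0.0484). The call averaged over mold types held without each of the 15 libraries.

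ITGA11 had 9.66, 7.85 and 8.12 CPM in anchored post, against 10.1, 12.9 and 15.8 CPM in anchored middle. It had 8.37, 8.39 and 7.09 CPM in unanchored post, against 15.4, 14.7 and 6.10 CPM in unanchored middle. Anchored regions did not overlap, while unanchored middle library 3 lay below all 3 unanchored post libraries. No mold had 12.2, 11.0 and 7.44 CPM, which overlapped every molded group. Within a mold type the log2 fold change of post over middle was -0.60 in anchored tissue (SE 0.247, edgeR adjusted p = 0.261) and -0.62 in unanchored tissue (SE 0.248, edgeR adjusted p = 0.264). Without unanchored middle library 3 the unanchored value was -0.92 (edgeR adjusted p = 0.0197). The averaged call ended with limma-voom (adjusted p = 0.0675) and without any 1 of 6 libraries: anchored post 2 (edgeR adjusted p = 0.0595) or 3 (0.064), anchored middle 3 (0.119), unanchored post 3 (0.0754) and unanchored middle 1 (0.112) or 2 (0.101). Its counts were low, 15 to 109 per library. The 5 mural markers summed to 6.94 to 10.8 CPM in anchored post against 9.21 to 12.6 in anchored middle, and to 10.2 to 11.6 in unanchored post against 10.9 to 13.7 in unanchored middle, and their part in these results was not tested.

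**Figure D2:**
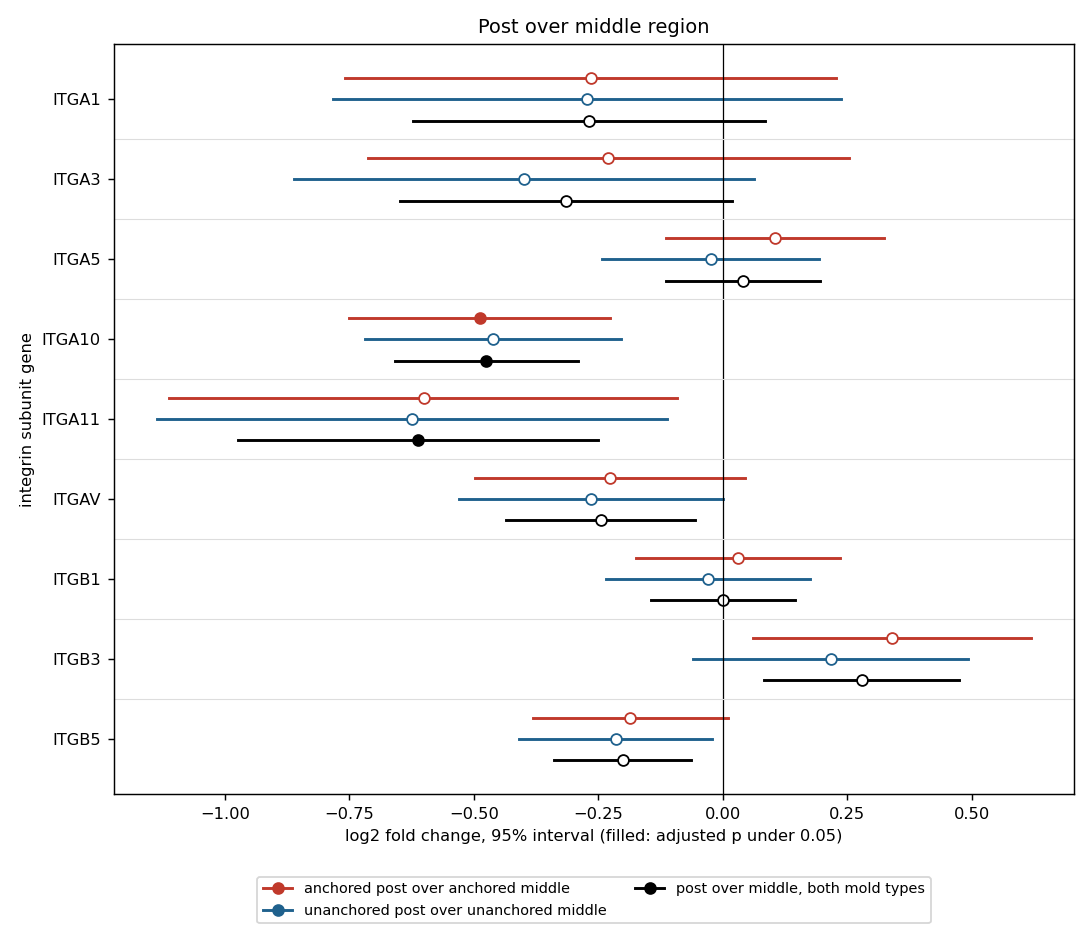
Log2 fold change of post over middle (horizontal axis) for the 9 tested integrin genes in anchored tissue, in unanchored tissue and averaged over both, with 95% intervals. Filled points passed at an edgeR adjusted p of 0.05. These are ITGA10 in anchored tissue and, averaged, ITGA10 and ITGA11.

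The other alpha subunits gave lower values at the post without passing, except ITGA5. ITGA1, the gene of the collagen IV and collagen I receptor subunit α1, had a log2 fold change of -0.27 averaged over mold types (95% interval -0.62 to 0.09, edgeR adjusted p = 0.364). It averaged 10.6 ± 1.45 CPM in anchored post, 13.7 ± 4.82 in anchored middle, 8.97 ± 3.15 in unanchored post and 10.8 ± 2.52 in unanchored middle (SD, n = 3 each). Anchored middle library 2 held the highest ITGA1 value of all libraries, from 53 counts. ITGA3, of the laminin receptor α3β1, had -0.32 (interval -0.65 to 0.02, edgeR adjusted p = 0.245) at 3.11 to 6.09 CPM over all libraries. ITGAV, whose product pairs with β1, β3 and β5, had 35.9, 34.3 and 34.2 CPM in anchored post, against 43.4, 34.5 and 42.3 CPM in anchored middle. It had 41.0, 34.9 and 37.4 CPM in unanchored post, against 40.4, 40.2 and 56.2 CPM in unanchored middle. The averaged value was -0.25 (interval -0.43 to -0.06, edgeR adjusted p = 0.099), and it passed without anchored middle library 2 (adjusted p = 0.0478). ITGA5 had 0.04 (interval -0.11 to 0.20, edgeR adjusted p = 0.787).

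None of the 3 beta subunit genes passed by edgeR averaged over mold types, and their values differed. ITGB1, the common partner of the collagen and fibronectin receptors, had a log2 fold change of 0.00 averaged over mold types (interval -0.14 to 0.15, edgeR adjusted p = 0.995). ITGB3 had 109, 107 and 119 CPM in anchored post, against 104, 61.4 and 93.6 CPM in anchored middle. It had 105, 103 and 132 CPM in unanchored post, against 91.8, 92.5 and 109 CPM in unanchored middle. Anchored regions did not overlap and unanchored regions did. The averaged value was 0.28 (SE 0.0949, edgeR adjusted p = 0.0698), which passed without anchored middle library 1 (adjusted p = 0.02) or unanchored middle library 3 (0.0427). It also passed when no low-count filter was used (0.28, edgeR adjusted p = 0.0159).

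ITGB5 had a value of the opposite sign to that of ITGB3, which did not pass by edgeR either. It had 203, 168 and 213 CPM in anchored post, against 222, 209 and 233 CPM in anchored middle. It had 196, 215 and 217 CPM in unanchored post, against 253, 239 and 238 CPM in unanchored middle. Here the unanchored regions did not overlap and the anchored ones did. The averaged log2 fold change was -0.20 (SE 0.0667, edgeR adjusted p = 0.0623), and it passed with DESeq2 (adjusted p = 0.0312). It also passed without anchored middle library 2 (edgeR adjusted p = 0.0384) or anchored post library 3 (0.0469). Of the counts of ITGB3, 50.3% sat in library values that are not whole, of ITGB5 31.8% and of ITGB1 33.4%, as when some reads fit several genes. For whole libraries this share was 41.5% to 47.4%. How many reads were shared is not known from the table.

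The ratio of ITGB3 to ITGB5 counts within a library does not depend on library scaling. The 5 ratios tested were added after the files were read. Their adjusted p covers only the 10 tests made and not the choice of pairs. On the log2 scale it ran from -0.90 to -0.65 in anchored post, against -1.77 to -1.09 in anchored middle. It ran from -1.06 to -0.72 in unanchored post, against -1.46 to -1.12 in unanchored middle. All 6 post libraries lay above all 6 middle libraries. The difference, post minus middle, was 0.51 (two-sided exact permutation test of region within mold type, p = 0.005, the smallest it can give with 400 arrangements, adjusted p = 0.025 over 10 tests of 5 ratios). The ratio of ITGB3 to ITGB1 was higher at the post by 0.30 (exact permutation p = 0.015, adjusted p = 0.0385). The ratio of ITGB5 to ITGB1 was lower at the post, with a difference of -0.21 (exact permutation p = 0.005, adjusted p = 0.025). Fewer arrangements remain when a molded library is left out. With 1 library left out the ITGB3 to ITGB5 difference was 0.41 to 0.58 and its exact permutation p 0.005 to 0.015. After adjustment it passed in 6 of the 15 such tests, the ITGB3 to ITGB1 ratio in 1 and the ITGB5 to ITGB1 ratio in 7. The ITGA11 to ITGA10 ratio differed by -0.05 between regions (exact permutation p = 0.855).

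**Figure D3:**
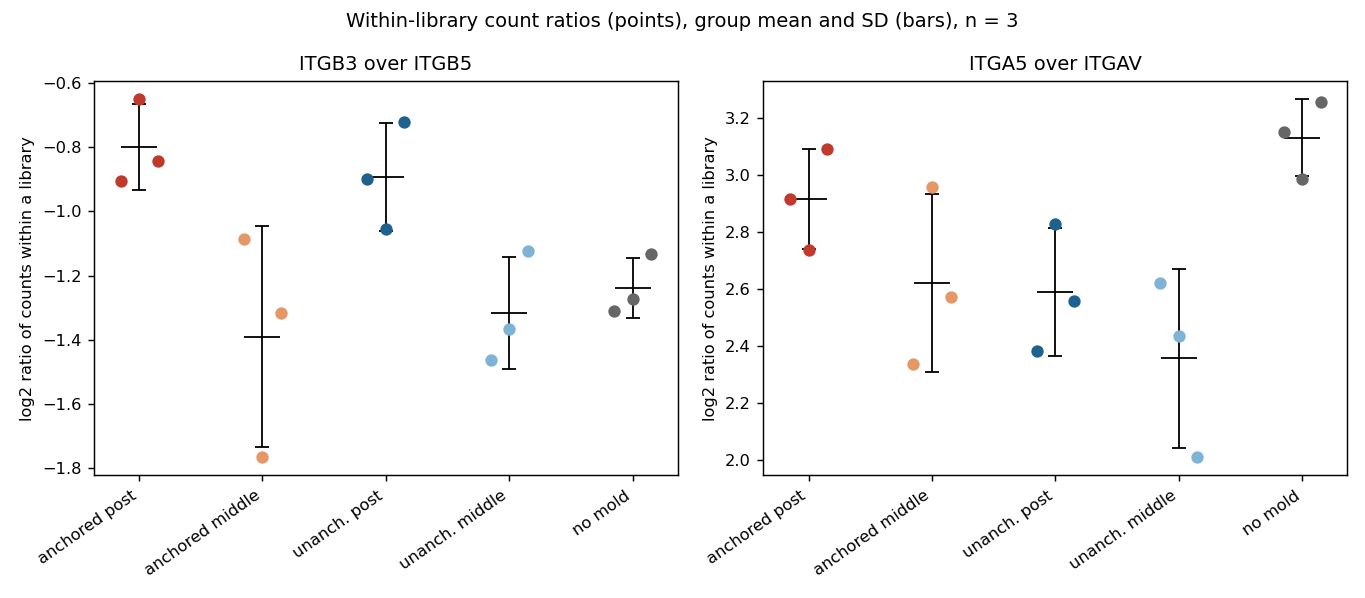
Log2 ratio of the counts of 2 integrin genes within each library (points), with mean and SD of each group of 3 (bars), for ITGB3 over ITGB5 (left) and ITGA5 over ITGAV (right). On the left the post libraries, at -1.06 to -0.65, all lie above the middle libraries, at -1.77 to -1.09. On the right the no-mold libraries lie at 2.99 to 3.26.

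Molded tissues were next set against cells in collagen that had no mold. ITGA5 (ENSBTAG00000013745), the gene of the fibronectin receptor subunit α5, was lower with a mold, and no other member passed in any of these comparisons by edgeR. In the mean of the 4 molded groups it fell by 0.31 log2 units (SE 0.0841, edgeR adjusted p = 0.0125). This was 1 of 9 members, beside 16% of all tested genes, so the members' share was not above that of the table.

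ITGA5 had 271, 229 and 292 CPM in anchored post, 219, 268 and 252 CPM in anchored middle, 214, 248 and 220.0 CPM in unanchored post, and 249, 218 and 226 CPM in unanchored middle, against 314, 309.7 and 275 CPM with no mold. The unanchored groups and anchored middle lay wholly below no mold, and anchored post overlapped it through library 3. The log2 fold change against no mold was -0.18 in anchored post (SE 0.107, edgeR adjusted p = 0.351), -0.29 in anchored middle (SE 0.108, 0.0767), -0.40 in unanchored post (SE 0.107, 0.0191) and -0.38 in unanchored middle (SE 0.107, 0.0195). These comparisons share the 3 no-mold libraries. In the mean of the molded groups, leaving out no-mold library 1 (edgeR adjusted p = 0.0903) or 2 (0.0735) ended the call. It also ended without the 3 shallowest libraries (0.113), where the log2 fold change was -0.38 against a lone no-mold library, whose spread is assumed to equal that of the molded groups. The calls in the unanchored groups ended in the same fits (0.0655 to 0.112) and without unanchored post library 1 (0.108) or 3 (0.0818), or unanchored middle library 2 (0.0902) or 3 (0.0548).

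Taken group by group, 0 of 9 members passed in anchored post against no mold by edgeR, beside 5.56% of all tested genes. In anchored middle 0 of 9 passed, beside 13.3%. In unanchored post 1 of 9 passed, beside 9.02%, and in unanchored middle 1 of 9, beside 14.8%. At an unadjusted p under 0.05 the numbers were 1, 1, 2 and 4 members in that order, beside 20.7%, 27.5%, 23.9% and 28.8% of all tested genes, so the first 3 were not above the share of the table. With DESeq2, ITGA5 also passed in anchored middle (adjusted p = 0.0444) and ITGB1 in unanchored middle (0.0429).

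ITGB1 had its highest group means in unanchored tissue but did not pass by edgeR. It had 777, 807 and 864 CPM in anchored post, 794, 722 and 877 CPM in anchored middle, 919, 846 and 862 CPM in unanchored post, and 846, 904 and 930.4 CPM in unanchored middle, against 704, 808 and 749 CPM with no mold. Both unanchored groups lay wholly above no mold, with log2 fold changes of 0.22 at the post (SE 0.0999, edgeR adjusted p = 0.187) and 0.24 in the middle (SE 0.0999, edgeR adjusted p = 0.104). In the mean of the 4 molded groups ITGB1 had 0.16 (interval -0.00 to 0.33, edgeR adjusted p = 0.173). ITGAV had 0.37 in unanchored middle against no mold (interval 0.08 to 0.67, edgeR adjusted p = 0.0823), with 35.4, 39.1 and 28.8 CPM in the no-mold libraries.

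The within-library ratio of ITGA5 to ITGAV, also added after the files were read, was compared next. It ran from 2.01 to 3.09 on the log2 scale over the 12 molded libraries, against 2.99 to 3.26 with no mold. The difference was -0.51 (two-sided exact permutation test over the 15 libraries, p = 0.0154, adjusted p = 0.0385 over the 10 tests). With 1 library left out it was -0.58 to -0.45 and the adjusted exact permutation p was 0.0275 to 0.154, past the threshold in 4 of 15. The ratio of ITGB5 to ITGB1 was lower with a mold, by -0.23 as the difference (exact permutation p = 0.0242, adjusted p = 0.0484), and this did not pass with any single library left out (adjusted p 0.0549 to 0.175). Both tests treated the 12 molded libraries as alike, without regard to region or mold type, although the ITGB5 to ITGB1 ratio also differed between regions.

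ITGA10 and ITGA11 lay on both sides of no mold. ITGA10 had log2 fold changes against no mold of -0.26 in anchored post, 0.23 in anchored middle, -0.18 in unanchored post and 0.28 in unanchored middle, and ITGA11 had -0.28, 0.32, -0.38 and 0.24 in the same order, none of which passed by edgeR. In the mean of the molded groups ITGA10 had 0.02 (interval -0.21 to 0.24) and ITGA11 -0.03 (interval -0.53 to 0.48). The intervals of ITGA1 (-0.35 to 0.67), ITGA3 (-0.54 to 0.42), ITGB3 (-0.15 to 0.33) and ITGB5 (-0.23 to 0.09) also held 0.

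**Figure D4:**
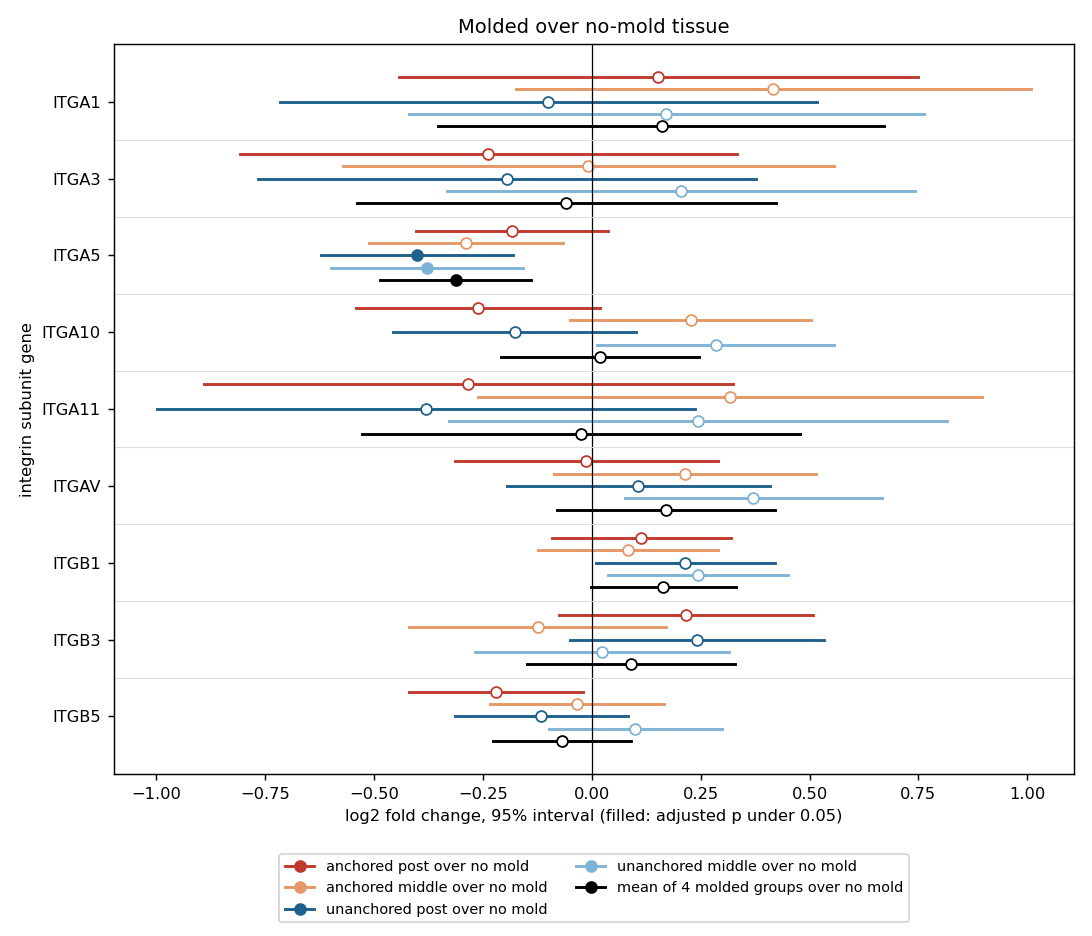
Log2 fold change over no mold (horizontal axis) of the 9 tested integrin genes in each molded group and in their mean, with 95% intervals. Filled points passed at an edgeR adjusted p of 0.05, which were ITGA5 in both unanchored groups and in the mean of the 4 molded groups.

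ITGA2, the gene of collagen receptor subunit α2, had 42 counts in all 15 libraries together and was not tested. It had 3, 4 and 5 counts in anchored post, 3, 0 and 2 in anchored middle, 2, 3 and 3 in unanchored post, 3, 4 and 3 in unanchored middle, and 1, 4 and 2 with no mold. The count of 0 in anchored middle library 2 allows a level of up to 1.00 CPM before TMM scaling, from 3 counts in 2986906. With so few counts, differences of ITGA2 between groups were not tested, and nothing is concluded about them. ITGA1 and ITGA2 are neighbours on chromosome 20 in the RefSeq table of the ARS-UCD2.0 assembly, while ITGA1 had 840 counts in all. ITGA3 and ITGB3 both lie on chromosome 19 in that table, and no other 2 members share a chromosome.

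The comparison of anchored with unanchored tissue asked whether post anchors changed the cells. By edgeR, 0 of 9 members passed in the middle, 0 of 9 at the post, 0 of 9 averaged over regions and 0 of 9 for the interaction of anchoring and region, beside 0% of all tested genes in each. The number of members with an unadjusted p under 0.05 was 0 in each, beside 3.09%, 3.84%, 5.48% and 1.88% of all tested genes, and DESeq2 and limma-voom also passed 0 members. Averaged over regions, ITGA5 had a log2 fold change of 0.15 (interval -0.00 to 0.31, edgeR adjusted p = 0.907), ITGB1 -0.13 (interval -0.28 to 0.01, 0.914), ITGB5 -0.12 (interval -0.26 to 0.02, 0.918) and ITGA1 0.25 (interval -0.11 to 0.60, 0.936). A p that misses the threshold does not show that the groups are alike, and the interval of ITGA1 still holds a rise of 0.60 on the log2 scale. For ITGA10 the averaged interval was -0.26 to 0.11 and for ITGA11 -0.28 to 0.45. The interaction, the post over middle effect in anchored minus that in unanchored tissue, was -0.03 for ITGA10 (interval -0.39 to 0.34), 0.02 for ITGA11 (interval -0.70 to 0.75) and 0.12 for ITGB3 (interval -0.27 to 0.52).

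Over the 15 libraries, ITGB5 followed ITGA10 (Pearson r = 0.878, Spearman rho = 0.786) and ITGA3 (r = 0.870, rho = 0.886) in log2 CPM. These relations were similar after group means were subtracted (r = 0.834 and 0.838) and without anchored middle library 2 (r = 0.889 and 0.923 over 14 libraries). ITGB1 and ITGAV had r = 0.622, and 0.541 after group means were subtracted. ITGB3 ran against ITGA11 (r = -0.652, -0.775 without anchored middle library 2) and ITGA1 (r = -0.739, -0.540 without that library). ITGA5 ran against ITGB1 (r = -0.625), but r was -0.187 after group means were subtracted. The libraries share depth, scaling and group, the values are descriptions of these 36 pairs of genes, and no p is given for them.

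**Figure D5:**
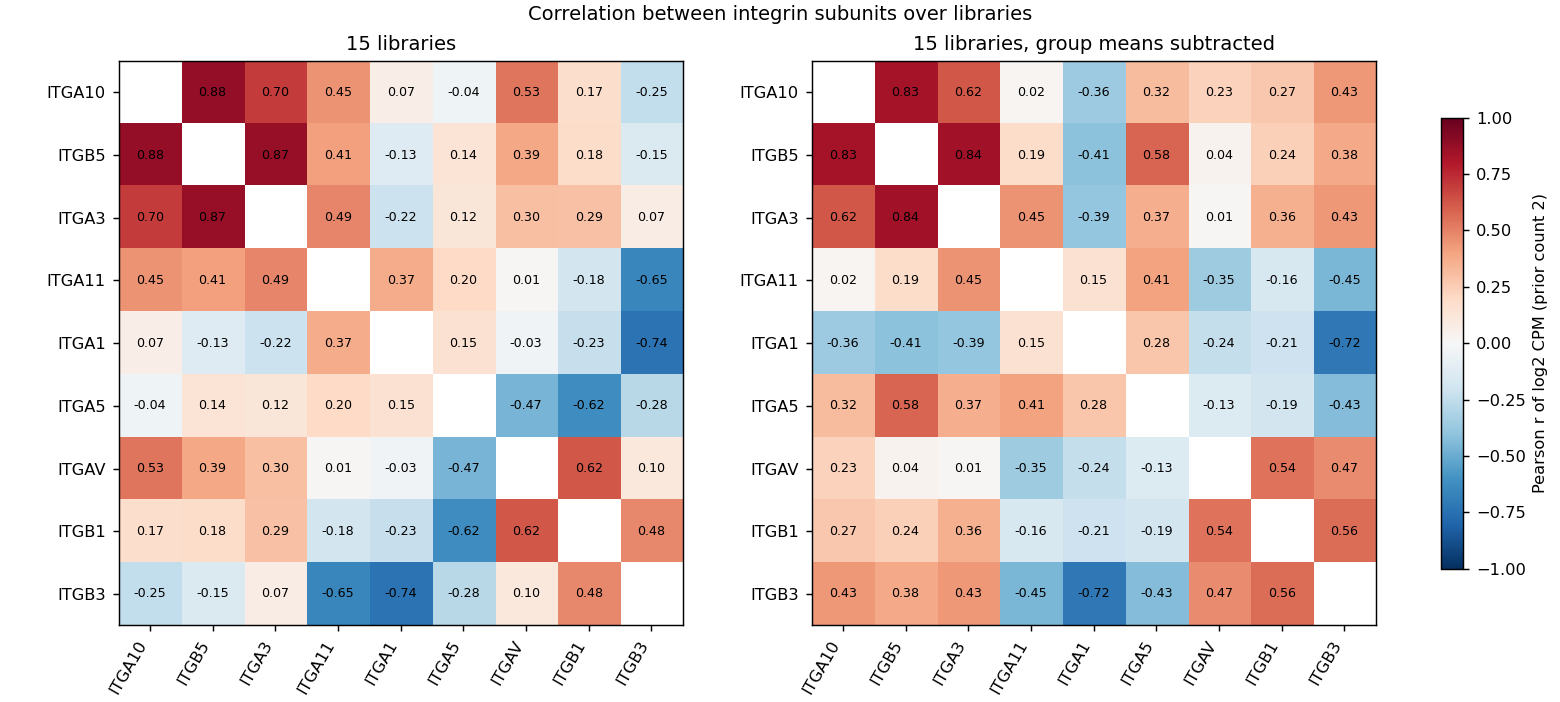
Pearson r of log2 CPM between the 9 tested integrin genes over the 15 libraries (left) and after each group's mean was subtracted (right). ITGB5 with ITGA10 and with ITGA3 has r of 0.878 and 0.870 on the left and of 0.834 and 0.838 on the right.

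Of 16 other integrin subunits listed, 14 were found and 4 had enough counts to be tested, ITGA6, ITGA8, ITGA9 and ITGB8. None of these 4 passed by edgeR in any of the 12 comparisons. ITGA8, whose product pairs with β1 and binds nephronectin, averaged 1.63 ± 0.470 CPM in anchored post, 0.993 ± 0.406 in anchored middle, 1.88 ± 0.295 in unanchored post and 1.18 ± 0.349 in unanchored middle (SD, n = 3), with a log2 fold change of 0.64 averaged over mold types (edgeR adjusted p = 0.149). ITGB8, of the αvβ8 integrin that activates latent TGF-β, had -0.36 (edgeR adjusted p = 0.119).

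Several ligands of the integrins were lower at the post as well. Of 12 collagen ligands tested, 5 fell and 0 rose averaged over mold types, beside 8.51% of all tested genes that passed in either direction (614 lower and 393 higher). The median log2 fold change was -0.31 for the collagens, -0.19 for the other matrix ligands and -0.18 for the laminins and nidogens, against -0.006 over all tested genes. The 3 with the smallest p were COL5A2, a fibril collagen, by 0.55 log2 units (SE 0.096, edgeR adjusted p = 0.000935), COL3A1 by 0.66 (SE 0.117, 0.000981) and COL11A1 by 0.48 (SE 0.0946, 0.00237). Of 16 other matrix ligands, 5 fell and 0 rose, with FBLN5 (fibulin 5) falling by 0.57, POSTN (periostin) by 0.28 and TGFB3 by 0.42 (edgeR adjusted p = 0.00237, 0.0397 and 0.0437). Of 11 laminin and nidogen genes, 5 fell and 0 rose, with LAMA2 falling by 0.50, LAMC1 by 0.42 and NID2 by 0.33 (edgeR adjusted p = 0.00141, 0.00148 and 0.00318). Of LAMC1 counts, 81.5% sat in values that are not whole. Without the 3 shallowest libraries these lists had 5, 3 and 5 falls and 0, 1 and 0 rises. The lists were chosen with earlier results of these data known, so their counts and medians are descriptions.

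Against no mold the ligands divided. In the mean of the molded groups 6 of 11 laminin and nidogen genes rose and 1 fell, beside 16% of all tested genes that passed in either direction. This count too is a description, since the list was chosen with earlier results of these data known. NID1, a linker of basement membranes, averaged 28.4 ± 3.10 CPM in anchored post, 37.8 ± 2.58 in anchored middle, 31.8 ± 2.12 in unanchored post and 41.9 ± 1.26 in unanchored middle, against 18.7 ± 5.88 with no mold (SD, n = 3). Its log2 fold change was 1.00 (SE 0.147, edgeR adjusted p = 6.62e-05), beside 0.54 for NID2 and 0.73 for LAMA2 (edgeR adjusted p = 0.000141 and 0.000319). The counts in the next lists, 3 of 16 and 2 of 12, were close to that share and are given as descriptions of the genes named. Of 16 other matrix ligands 2 rose, POSTN by 0.81 and TNC by 1.00 log2 units (edgeR adjusted p = 1.62e-05 and 2.92e-05), and MFGE8, an RGD protein that binds αv integrins, fell by 0.36 (edgeR adjusted p = 0.00315). Of 12 collagens COL4A1 rose by 1.28 (edgeR adjusted p = 0.00102) and COL2A1, the cartilage collagen, fell by 3.24 (edgeR adjusted p = 1.59e-08). COL4A2 had 0.305 in the same comparison and did not pass (edgeR adjusted p = 0.234). Without the 3 shallowest libraries the laminin and nidogen list had 4 rises and 0 falls, the other matrix ligands 2 and 0, and the collagens 0 and 1.

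Among 20 tested genes of a list of integrin activators, adaptors and other regulators, 3 fell and 0 rose with a mold, which was not above the 16% of all tested genes that passed. These were PARVB and PARVA, parvins that bind integrin-linked kinase, by 0.90 and 1.25 log2 units (edgeR adjusted p = 0.000814 and 0.0172), and ZYX (zyxin), by 0.47 (edgeR adjusted p = 0.000873). PARVB averaged 12.2 ± 1.86 CPM in anchored post, 9.77 ± 1.07 in anchored middle, 12.7 ± 4.11 in unanchored post and 12.4 ± 2.68 in unanchored middle, against 21.6 ± 0.736 with no mold (SD, n = 3). PARVA was at 1.37 to 4.43 CPM as group means. Of 9 matrix receptors that are not integrins, CD44, which binds hyaluronan, fell by 0.38 with a mold (edgeR adjusted p = 0.00482). This was 1 of 9, beside 16% of all tested genes, and 0 passed without the 3 shallowest libraries. Between regions 3 of the 9 passed, beside 8.51% of all tested genes, in a list chosen with earlier results of these data known. The collagen receptor kinase DDR2 fell by 0.25 and the proteoglycan SDC3 by 0.33 at the post, while the proteoglycan SDC2 rose by 0.31 (edgeR adjusted p = 0.0153, 0.0277 and 0.012). DDR2 averaged 136.9 ± 7.99 CPM in anchored post against 166.1 ± 7.33 in anchored middle, and 137.1 ± 9.64 CPM in unanchored post against 159.4 ± 4.98 in unanchored middle (SD, n = 3 each).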

How the data were processed

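Counts per gene in 15 libraries were analysed. Per the labels' protocols, libraries were primed with oligo-dT carrying a sample barcode and a molecular identifier and then tagmented. The tools named, per the submitters' processing notes, are featureCounts of Subread 2.1.1, STAR 2.7, SAMtools 1.21 and MultiQC 1.33. Not given in the sources used here are the build, the annotation, the counting settings and whether reads were collapsed by identifier. The deposited table holds expected counts, some not whole (tolerance 1e-06), and CPM that the authors deposited. Before testing, expected counts were rounded to whole numbers. The CPM columns were not used.

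The 92 spike-in rows were left out. Genes were kept by filterByExpr (count of 10, total of 15), which left 11834 of 38001, with TMM factors of 0.934 to 1.05. In R 4.3.3, edgeR 4.0.16 fitted all 5 groups in a single quasi-likelihood model. The 12 contrasts were two-sided and adjusted over all tested genes by Benjamini-Hochberg (threshold 0.05). SE is the log2 fold change divided by the root of its F statistic, and 95% intervals use the fit's degrees of freedom. The procedure was tested on simulated data whose only shifts were larger than those of the members, so effects of their size were not covered.

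Alternatives were DESeq2 1.42.0, its size factors, voom of limma 3.58.1, no filter, only the groups compared, a replicate block, and libraries left out. Ratios within a library and their exact permutation tests were added after the files were read. The members and gene lists were chosen with earlier results of these data known. Named were all members, up to 3 genes per list with the smallest p with a mold and between regions, and the 3 genes most correlated with each member. Sequences were not used. The region comparison of the activators and adaptors is not reported here.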

Additional observations from a re-analysis of the deposited data

How the results depend on the processing

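Scaling by DESeq2's size factors left every member on its side of the threshold in all 12 comparisons, and no called member changed sign under any alternative. The number of members past the threshold moved as follows, with the alternative's count set against the one reported. With DESeq2 it was 1 against 0 for anchored middle against no mold, 2 against 1 for unanchored middle against no mold and 1 against 0 for unanchored post against unanchored middle. For post against middle averaged over mold types it was 3 against 2 with DESeq2 (ITGB5 added), with no low-count filter and with the replicate block (ITGB3 added in both). With limma-voom it was 1 against 2 for that comparison. With no low-count filter it was 2 against 1 for unanchored middle against no mold and 1 against 0 for unanchored post against unanchored middle. With only the groups compared it was 0 against 1 for anchored and 1 against 0 for unanchored post against middle. Without the 3 shallowest libraries it was 0 against 1 for the mean of the molded groups, unanchored post and unanchored middle against no mold, and 4 against 2 for post against middle averaged. Leaving out 1 library gave 1 to 4 for post against middle averaged, 0 to 2 for unanchored middle against no mold, and 0 to 1 for post against middle within each mold type and for the mean of the molded groups, anchored middle and unanchored post against no mold. The cause of these shifts was not tested.

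Same-numbered libraries of different groups correlated at -0.17 to 0.264 in their deviations from group means, over 0.1 in 6 of 30 pairs. These pairs include groups that cannot share a tissue. Post with middle of the same number gave 0.0916 to 0.264 in unanchored and -0.0288 to 0.138 in anchored tissue (3 pairs each). The labels do not say that a number marks a shared tissue, so the numbers were not taken to pair the libraries. A pairing of post with middle within a mold type was not tested. In post and middle, 4 of 6 anchored and 6 of 6 unanchored libraries correlated best with their own number, a hint from the data and not the design. With the replicate block ITGB3 passed between regions (log2 fold change 0.28, edgeR adjusted p = 0.0368), the 1 of 108 member results whose call it changed.

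Over all genes, unanchored post against middle called 53 genes, 125 with DESeq2, 272 with no filter, 192 with only its groups and 148 without the 3 shallowest libraries. Anchored post against middle called 227, 479 with no filter and 105 with only its groups. Against no mold 1888 genes passed for the mean of the molded groups and 335 without the 3 shallowest libraries. For anchoring, 28 genes in the middle, 21 at the post, 66 averaged and 3 for the interaction passed with no filter, against 0. Depth limits ITGA2, ITGA3, ITGA1 and ITGA11 most.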

Other observations

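For each tested integrin, the 3 genes with a symbol and a mean of at least 10 CPM that followed it most closely over the 15 libraries were read from 7211 genes, as descriptions with no p. The libraries share depth, scaling and group. ITGA11 was followed by TENM3 (Pearson r = 0.899), COL1A1 (r = 0.881), the main fibrous collagen, and MRTFA (r = 0.878), a cofactor of serum response factor that responds to actin. After group means were subtracted these were 0.886, 0.817 and 0.847. ITGA10 was followed by AGO3 (r = 0.888), ITGB5 (r = 0.878) and LOXL3 (r = 0.871), a lysyl oxidase, with 0.634, 0.834 and 0.776 after group means were subtracted. ITGA1 was followed by LTBP1 (r = 0.863), which stores latent TGF-β in the matrix, PKDCC (r = 0.858) and EIF2B5 (r = 0.840). ITGA5 was followed by PHC2 (r = 0.899), NFIX (r = 0.891) and POFUT2 (r = 0.889).

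ITGB3 was followed by EMP1 (r = 0.948), CISD2 (r = 0.942) and LYSET (r = 0.929). ITGB1 was followed by USP1 (r = 0.911), SPART (r = 0.900) and MFSD14B (r = 0.882), and ITGB5 by ITGA10 (r = 0.878), DGCR8 (r = 0.862) and SASH1 (r = 0.848). SASH1 had 0.511 after group means were subtracted, the lowest of the 27 values. ITGAV was followed by AEBP2 (r = 0.913), YTHDC2 (r = 0.898) and ABHD13 (r = 0.866), and ITGA3 by FYCO1 (r = 0.903), ITGB5 (r = 0.870) and IP6K1 (r = 0.865).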
